A study of Mus musculus with 8 samples.

Results

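Deletion of PARP2 in M-CSF-expanded immature myeloid cells (IMCs) was measured by total RNA sequencing in 4 of the 8 libraries of the series, 2 labelled PARP2CKO and 2 labelled PARP2 WT, and the members described are all genes counted in those libraries. Bone marrow came from C57BL/6 mice aged 2 months. The PARP2 WT mice were PARP2 flox/flox without Cre, and the PARP2CKO mice were PARP2 flox/flox with lysozyme-Cre. Both groups thus carried the floxed allele, and Cre was the described difference between them. Whether they also differed in genotype elsewhere was not tested. Marrow cells were passed through a 40 µm strainer and grown for 3 days in 10% FBS with 40 ng/mL of the macrophage growth factor M-CSF. Lysozyme-Cre is active in cells of the monocyte, macrophage and granulocyte lineages, and the cells were cultured marrow, not a sorted population. The other 4 libraries, PARP1 WT (PARP1 flox/flox) and PARP1CKO (the same with lysozyme-Cre), entered the model that estimates the spread and are named only where they bear on a PARP2CKO value.

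PARP2 is a nuclear enzyme that binds broken DNA and builds chains of ADP-ribose from NAD on itself and on other proteins. It shares this role with PARP1, the more abundant enzyme, and both bring repair factors such as XRCC1 to single strand breaks. PARP2 also acts on chromatin and transcription factors, and mice without it have been studied for defects in blood cell formation. IMCs are defined by CD11b and Gr1 on the cell surface and can mature into macrophages, granulocytes or osteoclasts.

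The counts of the 4 libraries summed to between 49086916 and 61845125 over all genes, and 13197 of 24062 genes passed edgeR's filter on low counts. Levels are given as CPM, counts scaled to a common library size after TMM normalization, and a difference is a log2 fold change of PARP2CKO over PARP2 WT. The libraries of a group are described as biological duplicates, but no label names the mice, so p-values measure the spread between these libraries, some of which may be technical. An exact permutation test of 2 libraries against 2 cannot give a two-sided p below 0.333, and p-values therefore come from the quasi-likelihood test of edgeR, fitted across genes, with the Benjamini-Hochberg adjustment over all genes tested. SE is the standard error of a log2 fold change. Replicates differed by more than counting error, with a chi-square per gene of 8.32 in PARP2 WT and 10.1 in PARP2CKO.

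The labelled cell type was compared with marker genes. Itgam, which encodes CD11b, had 967 and 960 CPM in the PARP2 WT libraries and 1035 and 954 CPM in the PARP2CKO libraries. Csf1r, the receptor for M-CSF, had 1134 and 1266 CPM against 1256 and 1273 CPM. Both genes overlapped between the groups, that is, the PARP2CKO libraries were neither both above nor both below the PARP2 WT libraries. Ly6c2, which encodes part of the Gr1 antigen, had 72.2 and 71.9 CPM against 61.0 and 60.7 CPM, and Ly6g was not among the counted genes. The 15 macrophage markers together had 22659, 20478, 25906 and 22809 CPM in PARP2 WT replicates 1 and 2 and PARP2CKO replicates 1 and 2, and most of this was Gpnmb, with 17480, 15010, 20079 and 17325 CPM in that order. In the same order 14 neutrophil markers summed to 3655, 3435, 3373 and 2968 CPM. The 11 B cell markers summed to between 8.99 and 12.5 CPM and the 11 T and NK cell markers to between 4.01 and 5.69 CPM, with 3 of the T and NK cell markers at or under 3 counts in each of the 4 libraries. CD11b and M-CSF receptor transcripts were thus present in every library, beside a high level of macrophage genes and a low level of lymphocyte genes. For Gr1 the markers held only Ly6c2 as a counted gene, at 60.7 to 72.2 CPM and lower in PARP2CKO. The libraries are labelled myeloid cells, and IMC is the paper's name for these cultures. The transcripts do not establish the share of CD11b and Gr1 positive cells.

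Parp2, the targeted gene, occupies positions 50807841 to 50821301 of chromosome 14 in mm10. It had 48.2 and 48.3 CPM in PARP2 WT against 25.7 and 25.6 CPM in PARP2CKO. The libraries of a group were nearly equal and the groups were far apart. The difference was -0.91 on the log2 scale (SE 0.0453, adjusted p = 0.000139, quasi-likelihood test), and it was -0.91 with each library left out in turn. The PARP2CKO effect differed from the PARP1CKO effect in 2 genes (0.0152%), Parp2 and Nlrp1c-ps, by the test of the difference itself. Counts cover the whole gene, so reads from an exon outside the deleted part, cells without deletion and less RNA per cell cannot be told apart in these bulk libraries. Parp1 had 251 and 155 CPM in PARP2 WT against 263 and 264 CPM in PARP2CKO, and PARP2 WT replicate 2 was the low library (log2 fold change 0.37, adjusted p = 0.954, quasi-likelihood test). Its log2 fold change was 0.07 without PARP2 WT replicate 2 and 0.76 without PARP2 WT replicate 1, where it was called (adjusted p = 0.00226, quasi-likelihood test).

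Parp2 was the only called gene among 20 genes for ADP-ribose polymerases and for enzymes that remove ADP-ribose, and the other 19 had unadjusted p-values above 0.05. Of 21 genes for base excision and single strand break repair, in which PARP2 acts, none was called and none had an unadjusted p under 0.05. Xrcc1, the scaffold of this repair, had 40.7 and 39.5 CPM against 38.8 and 39.1 CPM, and Lig3, the ligase bound to it, had 42.0 and 41.4 CPM against 38.7 and 40.8 CPM. None of 27 genes for double strand break repair and none of 32 DNA replication genes had an unadjusted p under 0.05, while 4.83% of all genes tested did. Of 19 p53 target genes, 2 did, both lower in PARP2CKO. Cdkn1a, the p53 target that encodes the cell cycle inhibitor p21, had 281 and 284 CPM in PARP2 WT against 285 and 294 CPM in PARP2CKO.

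Over all 13197 genes, 7 were called at an adjusted p of 0.05 (0.053%), with 1 (0.00758%) higher in PARP2CKO and 6 (0.0455%) lower. They were Slamf7, which was higher, and Parp2, Ifi202b, Nlrp1a, Nlrp1c-ps, Ccl3 and Ccl9, which were lower. At an unadjusted p under 0.05 there were 637 genes (4.83%), 312 higher (2.36%) and 325 lower (2.46%), and in 630 (4.77%) the groups did not overlap either. In 4910 genes (37.2%) the groups did not overlap, with PARP2CKO lower in 18.8% and higher in 18.4% of all genes. The median log2 fold change over all genes was -0.0014, the lower and upper quartiles were -0.06 and 0.05, and 98 genes differed by at least 1 in either direction. The log2 fold change was above 0 in 49.3% of genes and below 0 in 50.7%, and the counts given for gene lists are to be read against these shares. Most of the transcriptome thus lay close to its PARP2 WT level, and the called genes were the deleted gene and members of 4 gene families.

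**Figure D1:**
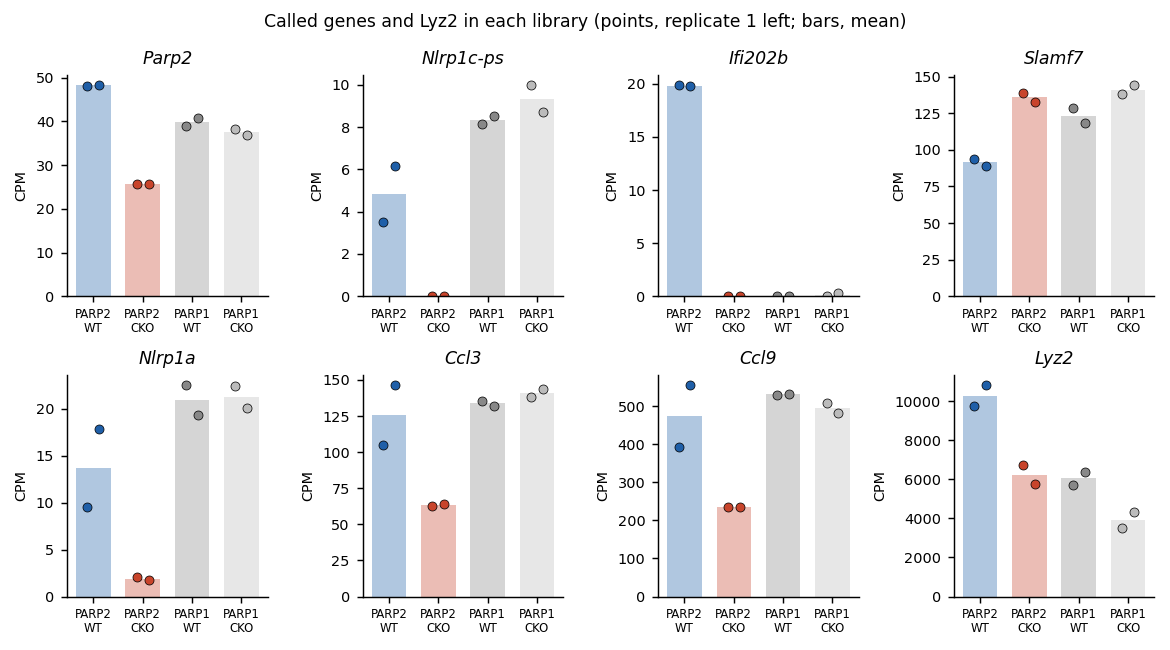
The 7 called genes and Lyz2 in every library of the series, on a linear CPM axis from 0, with points for replicates 1 and 2 and bars for the group mean. Ifi202b and Nlrp1c-ps were at 0 in both PARP2CKO libraries, and for Nlrp1a, Ccl3 and Ccl9 PARP2 WT replicate 1 lay below replicate 2 and above PARP2CKO.

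Slamf7 encodes a receptor of the SLAM family, whose members sit on blood cells and bind their own kind on neighbouring cells. It had 94.1 and 88.8 CPM in PARP2 WT against 139 and 132 CPM in PARP2CKO, and rose by 0.57 on the log2 scale (SE 0.0539, adjusted p = 0.00828, quasi-likelihood test). The call was lost without PARP2CKO replicate 1, at an adjusted p of 0.0789 (quasi-likelihood test). Of 10 tested SLAM family genes, 7 were higher and 3 lower, and 7 had an unadjusted p under 0.05, against 4.83% of all genes, of which 6 were higher. Slamf7 and 5 more of these 7, Cd48, Cd84, Slamf1, Slamf8 and Slamf9, lie in the window around Slamf7. In that window 19 of 77 genes of any kind had such a p. The remaining gene of the 7, Cd244 (log2 fold change 0.37), was not among the genes given a position there. Cd84 had 489 and 481 CPM against 563 and 584 CPM (log2 fold change 0.24, adjusted p = 0.216, quasi-likelihood test). Cd48 had 111 and 112 CPM against 130 and 131 CPM, and the less abundant Slamf9 had 6.78 and 6.48 CPM against 9.39 and 8.59 CPM. Slamf1 went the other way, with 4.39 and 2.46 CPM against 2.25 and 2.03 CPM, where PARP2 WT replicate 1 stood apart. The list's median was 0.23, and it was 0.15 without PARP2CKO replicate 1.

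Ifi202b belongs to the interferon-inducible Ifi200 genes, whose proteins bind DNA in the nucleus or cytosol, and lies on chromosome 1 of mm10 from 173962568 to 173982744. Its 1150 and 1028 counts in PARP2 WT were 19.9 and 19.8 CPM, and it had 0 counts in both PARP2CKO libraries. Against a floor of 3 counts per library it was at least 319-fold lower (adjusted p = 0.00300, quasi-likelihood test). It was also at 0 in PARP1 WT replicates 1 and 2 and PARP1CKO replicate 1, and at 0.288 CPM in PARP1CKO replicate 2, so the 2 PARP2 WT libraries were the ones that stood apart from the other 6. DESeq2 did not call it, with an adjusted p of 0.853. Among the 11 tested members of the family 5 were lower and 6 higher, and 5 had an unadjusted p under 0.05 in mixed directions. Ifi205 had 1.85 and 1.83 CPM against 0.922 and 1.26 CPM. Aim2, the DNA sensor of the AIM2 inflammasome, had 51.5 and 52.0 CPM against 42.9 and 44.8 CPM. Ifi204 had 27.3 CPM in both PARP2 WT libraries against 33.1 and 35.3 CPM, and AI607873 had 162 CPM in both against 185 and 188 CPM. Of these members only Ifi202b was called.

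Nlrp1a encodes a cytosolic sensor that can start an inflammasome, and it lies on chromosome 11 from 71092236 to 71144704. It had 9.55 and 17.9 CPM in the PARP2 WT libraries and 2.08 and 1.74 CPM in the PARP2CKO libraries (log2 fold change -2.83, SE 0.293, adjusted p = 0.0140, quasi-likelihood test). Its call was lost without PARP2CKO replicate 1 (adjusted p = 0.148, quasi-likelihood test) and without PARP2CKO replicate 2 (0.133), and when the 4 PARP2 line libraries were fitted alone (0.106). Nlrp1c-ps, a transcribed pseudogene of the same cluster from 71242430 to 71285232, had 203 and 320 counts against 0 and 0, and was at least 77.8-fold lower (adjusted p = 0.00300, quasi-likelihood test). Nlrp1b, which lies between them, had 29.7 and 28.4 CPM against 26.1 and 25.6 CPM. The 3 genes are close copies, and how reads shared between them were counted is not given in the sources used here. Of 24 tested NLR and inflammasome genes 18 were lower and 6 higher, and 5 had an unadjusted p under 0.05, all lower. Nod2, a sensor of bacterial cell wall, had 5.15 and 5.52 CPM against 4.21 and 4.35 CPM. Nlrp3 overlapped between the groups, at 66.1 and 71.2 CPM against 67.9 and 66.9 CPM, as did the protease Casp1, at 79.0 and 81.0 CPM against 78.7 and 81.9 CPM. The list's median was -0.03, and it was -0.13 without PARP2CKO replicate 2 and -0.08 without PARP2 WT replicate 1.

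Ccl3 and Ccl9 encode secreted CC chemokines that act through the receptor CCR1 and draw and activate myeloid cells. Ccl3 had 105 and 146 CPM in the PARP2 WT libraries and 62.5 and 64.0 CPM in the PARP2CKO libraries (log2 fold change -0.99, SE 0.123, adjusted p = 0.0465, quasi-likelihood test). Ccl9 had 392 and 554 CPM against 234 and 236 CPM (log2 fold change -1.01, SE 0.127, adjusted p = 0.0465, quasi-likelihood test). The 2 PARP2CKO libraries were nearly equal for both genes, and the spread lay in PARP2 WT. Both calls were lost without PARP2CKO replicate 1 (adjusted p = 0.293 for each, quasi-likelihood test) and without PARP2CKO replicate 2 (0.240 for each), where the lone library was assumed to vary like the other groups. They were also lost when the PARP2 line was fitted alone (0.214 for each) and when genes needed 1 CPM in 2 libraries (0.0581 for each). Of 12 tested CC chemokine genes 4 had an unadjusted p under 0.05, all lower and all between 83572919 and 83664683 on chromosome 11, namely Ccl3, Ccl9, Ccl6 and Ccl4. Ccl6 had 54.1 and 104 CPM against 22.5 and 20.5 CPM (adjusted p = 0.116, quasi-likelihood test). The monocyte attractants Ccl2 and Ccl7, near 82035571 and 82045712 on the same chromosome, had 439 and 479 CPM against 508 and 500 CPM, and 187 and 216 CPM against 191 and 228 CPM. Ccr1, which encodes the receptor of Ccl3 and Ccl9, overlapped, at 57.2 and 51.5 CPM against 59.2 and 50.6 CPM.

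The promoter windows of the chemokine genes are shown because the 3 genes lie in a row and were lower together. Each is the 250 bases before the RefSeq start on the minus strand of chromosome 11 of GRCm38.p6, Ccl3 at chr11:83649379-83649628, Ccl6 at chr11:83593088-83593337 and Ccl9 at chr11:83578637-83578886. Capitals mark matches on either strand to the TCF word, CTTTG followed by A or T and again by A or T, to the AP-1 word TGANTCA and to the NF-kB motif. Ccl9 held an AP-1 match, the same 7 bases on both strands, and an NF-kB match, and no match was found in the windows of Ccl3 and Ccl6. The paper reports TCF consensus sites in a longer stretch upstream of the CCL3 start, most of which was not searched here. The lack of a match in 250 bases therefore does not bear on those sites.
Ccl3: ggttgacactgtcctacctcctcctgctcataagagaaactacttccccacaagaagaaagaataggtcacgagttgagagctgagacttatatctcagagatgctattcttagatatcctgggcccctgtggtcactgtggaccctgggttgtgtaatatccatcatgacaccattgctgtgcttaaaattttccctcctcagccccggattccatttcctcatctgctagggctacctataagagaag
Ccl6: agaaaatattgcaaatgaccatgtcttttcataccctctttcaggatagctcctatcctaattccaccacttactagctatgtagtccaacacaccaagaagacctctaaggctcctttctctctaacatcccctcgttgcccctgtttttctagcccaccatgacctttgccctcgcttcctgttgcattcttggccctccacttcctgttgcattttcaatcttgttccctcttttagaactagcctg
Ccl9: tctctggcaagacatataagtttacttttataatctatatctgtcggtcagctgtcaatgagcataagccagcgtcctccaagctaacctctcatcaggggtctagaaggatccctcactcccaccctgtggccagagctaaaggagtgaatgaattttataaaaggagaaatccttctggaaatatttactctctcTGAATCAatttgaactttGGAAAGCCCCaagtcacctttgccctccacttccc
Over the 9797 tested genes with a window, 12.3% held a TCF word, 5.57% an AP-1 word and 5.4% an NF-kB motif. Of the 7 CC chemokine genes with a window, 1 held a TCF word (Ccl25), 2 an AP-1 word (Ccl9 and Ccl27a) and 1 the NF-kB motif (Ccl9). These are matches of letters, and binding was not measured.

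Position on the chromosome was described for windows of 5 Mb to either side of 6 anchor genes, chosen with the calls known, Parp2, Lyz2, Slamf7, Ifi202b, Nlrp1a and Ccl9. All 7 called genes, 5 of them anchors themselves, and 13 of the 20 next genes by p-value whose groups did not overlap, the anchor Lyz2 among them, lay in these windows, which hold 489 of the 12606 tested genes with a position (3.88%). Around Ifi202b 22 of 81 genes had an unadjusted p under 0.05, around Slamf7, whose window overlaps that one, 2.33 Mb away, 19 of 77, around Ccl9 18 of 107, around Nlrp1a 20 of 156, and elsewhere 4.38% of genes. Around Lyz2 3 of 41 genes and around Parp2 7 of 98 genes did. The genes around an anchor went both ways. On chromosome 1 the membrane protease subunit Ncstn had 148 and 146 CPM against 167 and 165 CPM and the phosphatase Dusp23 had 7.70 and 8.53 CPM against 11.9 and 11.1 CPM. The potassium channel gene Kcnj10, which lies between Ncstn and Dusp23, had 1.63 and 1.38 CPM against 0.671 and 0.373 CPM. Hmga2-ps1, a pseudogene 2.86 Mb beyond Ifi202b, had 16.7 and 15.8 CPM against 9.97 and 9.36 CPM (adjusted p = 0.0790, quasi-likelihood test), the smallest adjusted p of a gene that was not called. Genotype along these intervals was not tested.

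**Figure D2:**
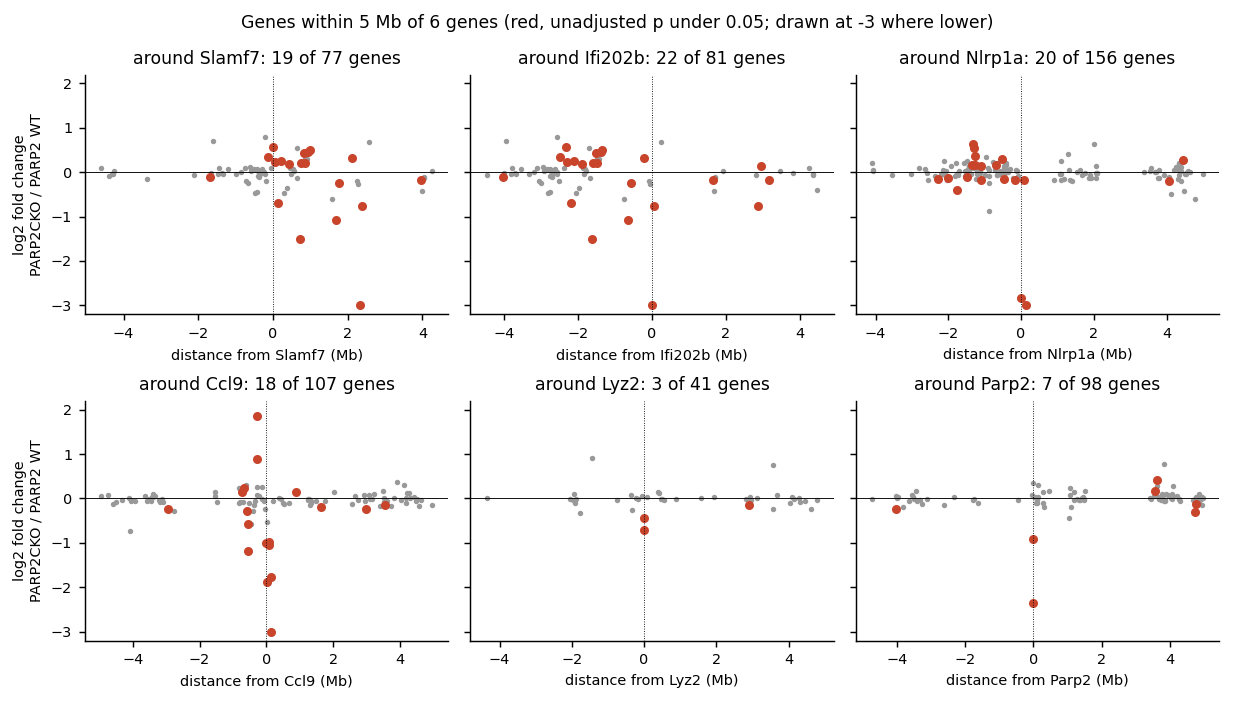
Log2 fold change of PARP2CKO over PARP2 WT against distance in Mb from each of 6 anchor genes, with genes at an unadjusted p under 0.05 in red and values below -3 drawn at -3. The red genes gather within about 3 Mb of Slamf7, Ifi202b and Ccl9, above and below 0, and around Lyz2 and Parp2 few genes other than the anchors and their neighbours Lyz1 and Rpph1 stand out.

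In the windows of chromosome 11 the 2 PARP2 WT libraries were apart for most genes with the larger differences from PARP2CKO, while Nlrp1b and Dvl2, with smaller differences, had nearly equal PARP2 WT libraries. Within the 4 windows of chromosomes 1 and 11, 22 genes had an unadjusted p under 0.05, groups that did not overlap and a log2 fold change of at least 0.5 either way. This choice of genes already placed PARP2 WT replicate 1 on the same side of PARP2CKO as replicate 2. Only whether it fell short of replicate 2 or beyond it was left free. The genes are also neighbours in windows chosen with the calls known, and do not count as independent cases. For the 14 on chromosome 11, PARP2 WT replicate 1 lay between the PARP2CKO mean and PARP2 WT replicate 2 in 14. In 13 it lay between 25% and 75% of that distance, with a median of 49.4%. Ccl9 lay at 49.3%, Ccl3 at 50.1%, Nlrp1a at 47.9%, Nlrp1c-ps at 57.1% and Slfn8 at 48.0% of the distance. AA465934, named after its values were seen, lay at 49.6% and ran in the opposite direction, with 2.68 and 0.115 CPM in PARP2 WT against 5.31 and 5.09 CPM in PARP2CKO. Nlgn2 was the exception, at 92.9%. For the 8 genes on chromosome 1, 2 lay between, Ackr1 and Slamf7, and the median was 109%. Ifi202b was at 101%, the PARP2 WT libraries being nearly equal. The difference between the chromosomes was not tested.

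Among the 14 genes of chromosome 11, Wfdc17, a secreted protein gene near Ccl4, had 38.3 and 67.7 CPM in PARP2 WT against 16.4 and 14.9 CPM in PARP2CKO (adjusted p = 0.187, quasi-likelihood test). Its neighbour Wfdc18 had 15 and 22 counts against 1 and 3 and was at least 5.49-fold lower against the floor. Schlafen genes are interferon-inducible genes that restrain growth of blood cells, and several lie in the window around Ccl9. Slfn8 had 13.3 and 19.9 CPM against 7.73 and 6.88 CPM, and the pseudogene Slfn10-ps had 18.0 and 21.8 CPM against 13.5 and 13.2 CPM (adjusted p = 0.121, quasi-likelihood test). Of 9 tested Schlafen genes 7 were lower, and 3 of them had an unadjusted p under 0.05. Slfn5 was on the other side, with 102 and 89.2 CPM against 118 CPM in both PARP2CKO libraries. The list's median of -0.29 was -0.16 without PARP2 WT replicate 2 and -0.15 without PARP2CKO replicate 1.

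**Figure D3:**
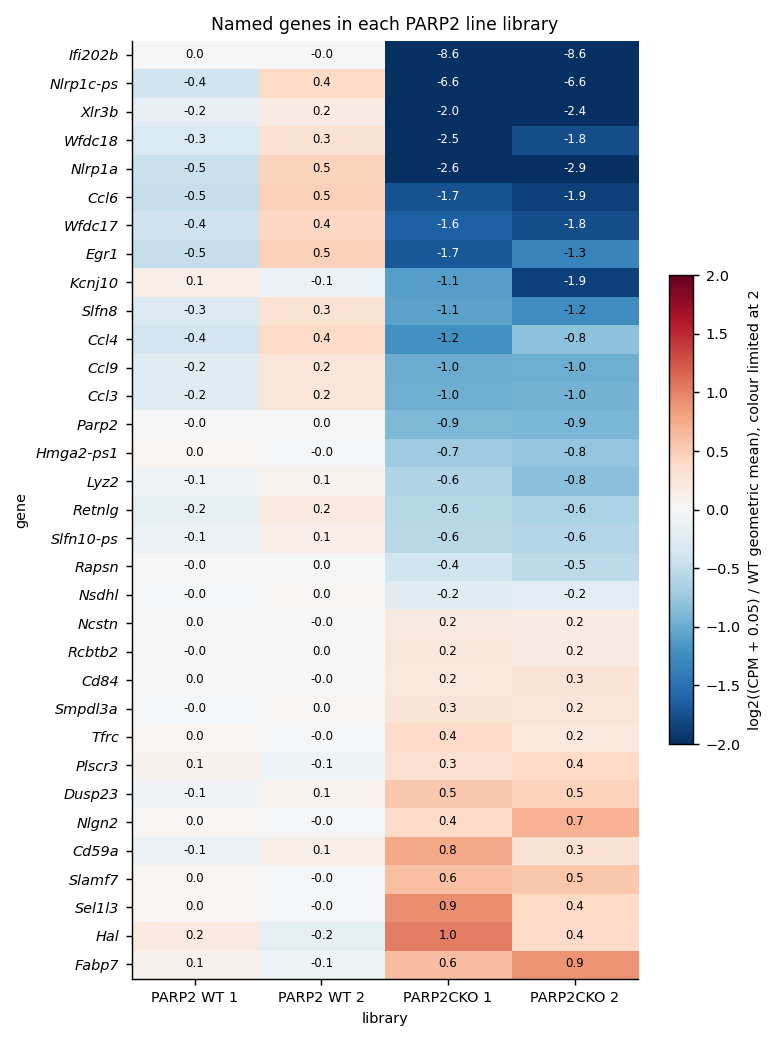
The 33 named genes other than Parp1 in each PARP2 line library, as log2 of CPM plus 0.05 relative to the PARP2 WT geometric mean, with colour limited at 2 on the log2 scale. Ccl6, Nlrp1a, Wfdc17 and Egr1 differ between the PARP2 WT libraries, with replicate 1 the lower, while Ifi202b, Cd84, Ncstn and Nsdhl are nearly equal within each group.

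Lyz2, the lysozyme M gene that drives Cre in this line, had 9725 and 10804 CPM in PARP2 WT against 6742 and 5747 CPM in PARP2CKO. The groups did not overlap, and the difference was -0.72 on the log2 scale (SE 0.116, adjusted p = 0.187, quasi-likelihood test). The likelihood-ratio test and DESeq2 called it, with adjusted p-values of 2.6e-06 and 0.00437. Lyz1, its near copy 0.0105 Mb away, had 410 and 462 CPM against 336 and 304 CPM. Lyz2 was also lower in the PARP1CKO libraries, at 3495 and 4334 CPM, than in the PARP1 WT libraries, at 5712 and 6387 CPM. For Lyz2 the PARP2CKO effect minus the PARP1CKO effect was -0.09 (adjusted p = 0.915, quasi-likelihood test). Within the PARP2 line, where only PARP2CKO mice carried Cre, an effect of Cre itself and that of PARP2 cannot be told apart. Beside Parp2, the neighbouring RNase P RNA gene Rpph1, named after its values were seen, had 8.02 and 1.06 CPM in PARP2 WT against 1.27 and 0.456 CPM in PARP2CKO, and PARP2 WT replicate 1 alone was high.

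Most genes of sterol and fatty acid synthesis had lower levels in PARP2CKO, and none was called by the quasi-likelihood test. These pathways build cholesterol from acetyl-CoA through mevalonate and squalene, and fatty acids through malonyl-CoA, and the SREBP factors switch on both. Of 24 cholesterol synthesis genes, all tested, 23 had a log2 fold change below 0, against 50.7% of all genes, and 13 (54.2%) had an unadjusted p under 0.05, all lower, against 2.46% of all genes. In 17 the PARP2CKO libraries both lay below the PARP2 WT libraries, against 18.8% of all genes. The median was -0.14, with the 4 libraries at -0.0038 and 0.0038 for PARP2 WT and -0.17 and -0.13 for PARP2CKO relative to the PARP2 WT mean. None of the 24 was called by the quasi-likelihood test, and the likelihood-ratio test called 1, Nsdhl (adjusted p = 0.0221). Nsdhl, a demethylating enzyme late in the pathway, had 54.5 and 56.0 CPM against 46.9 and 47.9 CPM (log2 fold change -0.22, adjusted p = 0.366, quasi-likelihood test). Lss, which closes the sterol ring, had 82.6 and 83.0 CPM against 72.6 and 68.3 CPM. Pmvk, a mevalonate pathway kinase, had 49.4 and 50.3 CPM against 41.9 and 39.7 CPM. Idi1, which makes the isoprene unit, had 181 and 177 CPM against 153 and 163 CPM, and Insig1, the sterol-sensing retention protein, had 198 and 208 CPM against 176 CPM in both. The factor Srebf2 did not separate, with 230 and 223 CPM against 230 and 219 CPM. Leaving out 1 library left the median between -0.17 and -0.13.

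Of 19 fatty acid synthesis genes 14 were lower, and 6 had an unadjusted p under 0.05, all lower. The desaturase Scd1 had 136 and 141 CPM against 66.5 and 90.0 CPM, the largest difference of the list (log2 fold change -0.82, adjusted p = 0.849, quasi-likelihood test). Its relative Scd2 was more abundant, with 1209 and 1262 CPM against 922 and 989 CPM. Fasn, the fatty acid synthase, had 427 and 439 CPM against 380 and 367 CPM, and Fads2, a desaturase of polyunsaturated fatty acids, had 138 and 135 CPM against 98.3 and 108 CPM. Fads2 was called by the likelihood-ratio test (adjusted p = 0.0366), by DESeq2 (0.00562) and when low counts were not filtered, and Fasn by DESeq2 (0.0471). Elovl6 and Acsl3 were the other 2, and the median was -0.08. Of 20 genes for lipid uptake and efflux 15 were higher, and none was called. An unadjusted p under 0.05 was found for 3 of them, all higher, against 2.36% of all genes. The fatty acid receptor Cd36 had 2184 and 2002 CPM against 2309 and 2540 CPM. The droplet coat protein Plin2 had 865 and 860 CPM against 959 and 936 CPM. The cholesterol carrier Npc2, the last of the 3, had 660 and 679 CPM against 743 and 714 CPM. That list's median was 0.11 and was 0.07 without PARP2 WT replicate 2. The sterol regulatory word TCACNCCAC was found within 250 bases of the start in 1 of 17 cholesterol synthesis genes with a window (Hmgcs1) and in 1.24% of all genes with one.

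**Figure D4:**
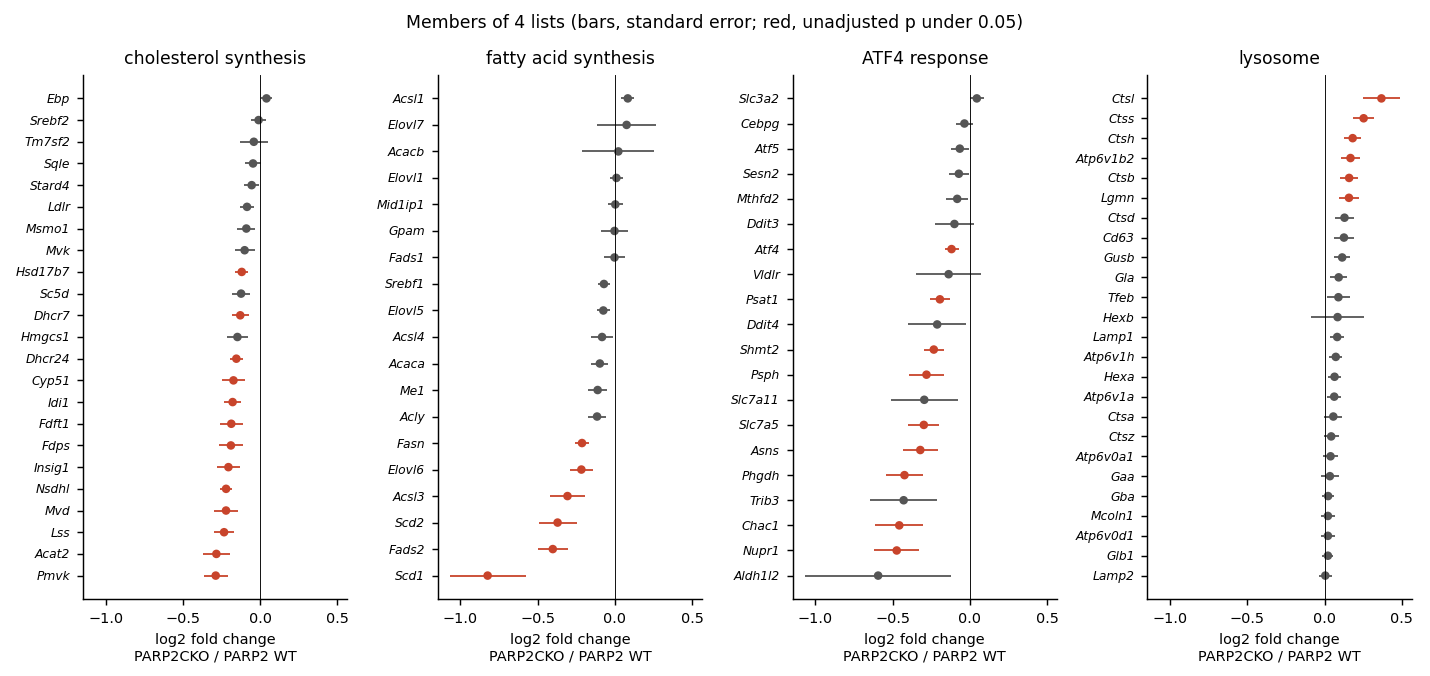
Log2 fold change of PARP2CKO over PARP2 WT for the tested members of the cholesterol synthesis, fatty acid synthesis, ATF4 response and lysosome lists, 1 of them not drawn, with standard errors as bars and members at an unadjusted p under 0.05 in red. In the first 3 lists red members lie below 0 and in the lysosome list above 0, and most differences are under 0.5.

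ATF4 is the transcription factor that cells raise when amino acids are short or proteins fail to fold, and its targets make serine and asparagine and import amino acids. Of 20 such genes, all tested, 19 were lower and 9 (45.0%) had an unadjusted p under 0.05, all lower, against 2.46% of all genes. Phgdh, the first enzyme of serine synthesis, had 82.2 and 91.5 CPM against 60.8 and 68.8 CPM (log2 fold change -0.42, adjusted p = 0.840, quasi-likelihood test). Asns, asparagine synthetase, had 86.2 and 101 CPM against 69.8 and 80.3 CPM. Shmt2, which moves serine carbon into folate in mitochondria, had 156 and 177 CPM against 141 and 142 CPM. Slc7a5, an importer of large amino acids, had 71.8 and 82.7 CPM against 62.0 and 63.6 CPM. Nupr1 had 10.4 and 11.5 CPM against 7.68 and 8.12 CPM, and Chac1, which breaks down glutathione, had 5.69 and 7.86 CPM against 4.59 and 5.28 CPM. Atf4 itself had 344 and 352 CPM against 311 and 330 CPM. The list's median was -0.22, with PARP2 WT replicate 1 at -0.08 and replicate 2 at 0.08, and it was -0.14 without PARP2CKO replicate 1 and -0.32 without PARP2 WT replicate 1. Of 16 genes of the unfolded protein response none had an unadjusted p under 0.05.

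The windows of 3 of these genes are shown because they hold the word TGATGNAA, the core of the element that ATF4 binds with C/EBP partners. They lie at chr6:7693210-7693459 on the minus strand for Asns, chr2:119350992-119351241 on the plus strand for Chac1 and chr7:126625471-126625720 on the minus strand for Nupr1, all of GRCm38.p6 from RefSeq, and capitals mark the word on either strand.
Asns: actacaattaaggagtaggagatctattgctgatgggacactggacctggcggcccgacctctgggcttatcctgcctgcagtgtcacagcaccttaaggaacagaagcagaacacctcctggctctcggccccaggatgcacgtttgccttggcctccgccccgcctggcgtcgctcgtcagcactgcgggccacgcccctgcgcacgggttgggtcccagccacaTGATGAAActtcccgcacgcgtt
Chac1: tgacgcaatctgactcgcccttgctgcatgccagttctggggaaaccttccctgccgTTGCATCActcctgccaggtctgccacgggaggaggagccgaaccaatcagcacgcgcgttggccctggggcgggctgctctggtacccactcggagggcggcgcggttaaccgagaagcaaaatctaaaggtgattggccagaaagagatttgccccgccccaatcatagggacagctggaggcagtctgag
Nupr1: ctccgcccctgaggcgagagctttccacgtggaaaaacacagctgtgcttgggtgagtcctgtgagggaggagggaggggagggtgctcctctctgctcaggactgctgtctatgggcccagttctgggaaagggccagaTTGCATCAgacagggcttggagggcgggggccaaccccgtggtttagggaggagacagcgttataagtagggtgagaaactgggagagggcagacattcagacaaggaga
The word was found in 5 of the 18 ATF4 response genes with a window, the other 2 being Slc7a11 and Vldlr, and in 2.54% of all tested genes with one. Slc7a11, the cystine importer, had 53.6 and 55.3 CPM in PARP2 WT against 39.2 and 49.7 CPM in PARP2CKO.

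Type I interferon response genes, which cells switch on after virus or DNA sensing, were lower in 24 of 24 cases, and in 19 both PARP2CKO libraries lay below both PARP2 WT libraries, against 18.8% of all genes. None had an unadjusted p under 0.05, against 4.83% of all genes. The standard error of Rsad2, an antiviral enzyme, was 0.448 for a log2 fold change of -0.63, with 11 and 11.7 CPM against 5.75 and 9.05 CPM. Ifit3 had 2.68 and 2.88 CPM against 1.46 and 2.05 CPM, and Stat2 had 72.4 and 75.2 CPM against 60.5 and 68.3 CPM. PARP2CKO replicate 1 was the lower library, at a median of -0.43 against -0.11 in replicate 2, and the list's median of -0.27 was -0.11 without PARP2CKO replicate 1. Of 14 guanylate binding protein and IRG genes, which respond mainly to interferon gamma, 13 were lower and none had an unadjusted p under 0.05. Their median of -0.18 was -0.09 without PARP2CKO replicate 1.

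The windows of Rsad2 and Ifit3 are shown for the interferon-stimulated response element, searched as GAAA, any 2 bases and GAAA again, found in 8 of 18 interferon response genes and 8 of 9 guanylate binding protein and IRG genes with a window, and in 3.29% of all genes with one. Rsad2 lies at chr12:26456453-26456702 on the minus strand and Ifit3 at chr19:34583279-34583528 on the plus strand of GRCm38.p6, and capitals mark the word on either strand.
Rsad2: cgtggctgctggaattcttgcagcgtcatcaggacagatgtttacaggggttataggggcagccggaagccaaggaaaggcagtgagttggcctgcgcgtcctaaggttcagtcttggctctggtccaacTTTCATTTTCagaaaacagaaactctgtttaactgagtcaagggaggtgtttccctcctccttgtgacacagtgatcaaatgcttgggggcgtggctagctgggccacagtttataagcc
Ifit3: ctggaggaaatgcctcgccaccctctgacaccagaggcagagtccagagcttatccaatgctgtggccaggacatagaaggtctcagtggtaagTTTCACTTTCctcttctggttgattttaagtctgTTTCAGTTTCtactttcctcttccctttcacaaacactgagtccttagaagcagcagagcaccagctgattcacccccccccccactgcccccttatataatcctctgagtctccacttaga
The element was found in 3.91% of genes that were lower at an unadjusted p under 0.05 without overlap and in 5.08% of those that were higher.

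Most macrophage markers had higher levels and most neutrophil markers lower levels in PARP2CKO, and none was called by the quasi-likelihood test. The likelihood-ratio test called 1 macrophage marker, which was higher, and 2 neutrophil markers, which were lower. Of 9 granulocyte progenitor markers 5 were higher and 4 lower, with a summed level of 1007 and 926 CPM against 1045 and 1008 CPM. Of 15 macrophage markers 11 were higher and 5 had an unadjusted p under 0.05, all higher, against 2.36% of all genes, with a median of 0.15. Emr1, which encodes F4/80, had 524 and 531 CPM against 630 and 594 CPM (log2 fold change 0.21, adjusted p = 0.704, quasi-likelihood test). Folr2, a folate receptor of macrophages, had 24.4 and 29.8 CPM against 42.7 and 35.2 CPM. Mertk, a receptor for dying cells, had 55.3 and 68.4 CPM against 77.7 and 73.0 CPM, and the antibody receptor Fcgr1 had 61.7 and 62.2 CPM against 68.2 and 69.6 CPM. The complement genes C1qa, C1qb and C1qc overlapped between the groups. The median was 0.09 without PARP2CKO replicate 1 and 0.10 without PARP2 WT replicate 1.

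Of 14 neutrophil markers 13 were lower and 4 had an unadjusted p under 0.05, all lower, against 2.46% of all genes, with a median of -0.21 that was -0.13 without PARP2CKO replicate 2. Retnlg, a secreted resistin-like protein of granulocytes, had 9.84 and 13 CPM against 7.59 and 7.27 CPM. Its log2 fold change was -0.61 (adjusted p = 0.371, quasi-likelihood test), and between -0.80 and -0.40 with 1 library left out. The likelihood-ratio test (adjusted p = 0.00147) and DESeq2 (adjusted p = 0.00800) called it. The gelatinase Mmp9 had 29.2 and 32.5 CPM against 24.4 and 21.5 CPM, and Cd177 had 63.4 and 65.2 CPM against 59.0 and 51.1 CPM. Of 11 monocyte markers 2 had an unadjusted p under 0.05, both lower, Ly6c2 among them. Of 9 tested basophil and mast cell markers 9 were lower and 3 had an unadjusted p under 0.05. The 11 markers counted summed to 35.3 and 32.2 CPM against 25.8 and 25.9 CPM, and Hdc rested on PARP2 WT replicate 1 (5.53 CPM against 0.98 CPM in replicate 2). Whether the lists above differ because of the share of these cells in culture was not tested.

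Lysosomal genes were higher in 25 of 25 cases. In 15 the groups did not overlap, against 18.4% of all genes that were higher without overlap, and 6 had an unadjusted p under 0.05, against 2.36% of all genes. Cathepsin S, Ctss, had 1926 and 1903 CPM against 2375 and 2184 CPM (log2 fold change 0.25, adjusted p = 0.801, quasi-likelihood test). Cathepsin L, Ctsl, had 914 and 871 CPM against 1267 and 1035 CPM, and cathepsin B, Ctsb, among the most abundant transcripts, had 14993 and 14451 CPM against 16833 and 16021 CPM. The list's median was 0.08, with PARP2CKO replicate 1 at 0.11 and replicate 2 at 0.05, and 0.05 without replicate 1. In iron and haem handling 11 of 14 genes were higher. An unadjusted p under 0.05 was found for 3 higher genes and 1 lower gene, against 4.83% of all genes. The lower one was Nfe2l2 (log2 fold change -0.13). Tfrc, the transferrin receptor, had 530 and 498 CPM against 672 and 595 CPM (log2 fold change 0.30, adjusted p = 0.485, quasi-likelihood test), and the ferritin chains Ftl1 and Fth1 had 18227 and 18037 CPM against 21842 and 19636 CPM, and 12291 and 11659 CPM against 13306 and 13204 CPM. That list's median of 0.11 was 0.05 without PARP2CKO replicate 1. Of 31 oxidative phosphorylation genes 29 were higher, against 49.3% of all genes, and 4 had an unadjusted p under 0.05, all higher, against 2.36%, with a median of 0.05 that was 0.03 without PARP2CKO replicate 1. Ribosomal protein genes were higher in 18 of 31 cases, and their median of 0.01 was -0.04 without PARP2CKO replicate 1 and 0.04 without PARP2CKO replicate 2.

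Of 26 mitosis genes 22 were lower and 6 had an unadjusted p under 0.05, all lower, with a median of -0.07 and values of -0.06 without any 1 of the 4 libraries. Birc5, a chromosomal passenger protein, had 78.7 and 79.8 CPM against 73.6 and 71.8 CPM (log2 fold change -0.12, adjusted p = 0.849, quasi-likelihood test), and Cenpf had 62.9 and 62.2 CPM against 56.5 and 58.2 CPM. Mki67 had 730 and 741 CPM against 696 and 704 CPM, and Top2a overlapped at 315 and 314 CPM against 313 and 320 CPM. Immediate early genes, which respond within minutes to growth factors and handling, had 15 members lower and 11 higher. The groups did not overlap in 9 of the lower and 7 of the higher, against 18.8% of all genes for lower and 18.4% for higher. An unadjusted p under 0.05 was found for 5 of 26, all lower, against 2.46% of all genes. Egr1 had 41.0 and 79.1 CPM against 17.6 and 22.6 CPM (log2 fold change -1.58, adjusted p = 0.538, quasi-likelihood test), and the log2 fold change of Egr1 was -1.03 without PARP2 WT replicate 2. It was called by the likelihood-ratio test (adjusted p = 0.00733), without a low count filter (0.00370) and with the replicate number as a block (0.0405). Egr1 was also lower in PARP1CKO, at 14.5 and 7.17 CPM, than in PARP1 WT, at 72.5 and 51.7 CPM. Fosb had 1.73 and 4.69 CPM against 1.39 and 0.953 CPM, while Fos had 135 and 186 CPM against 129 and 126 CPM. The list's median was -0.05, and with 1 library left out it ranged from -0.10 to 0.03. It was 0.03 without PARP2 WT replicate 2 and -0.02 without PARP2CKO replicate 1.

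**Figure D5:**
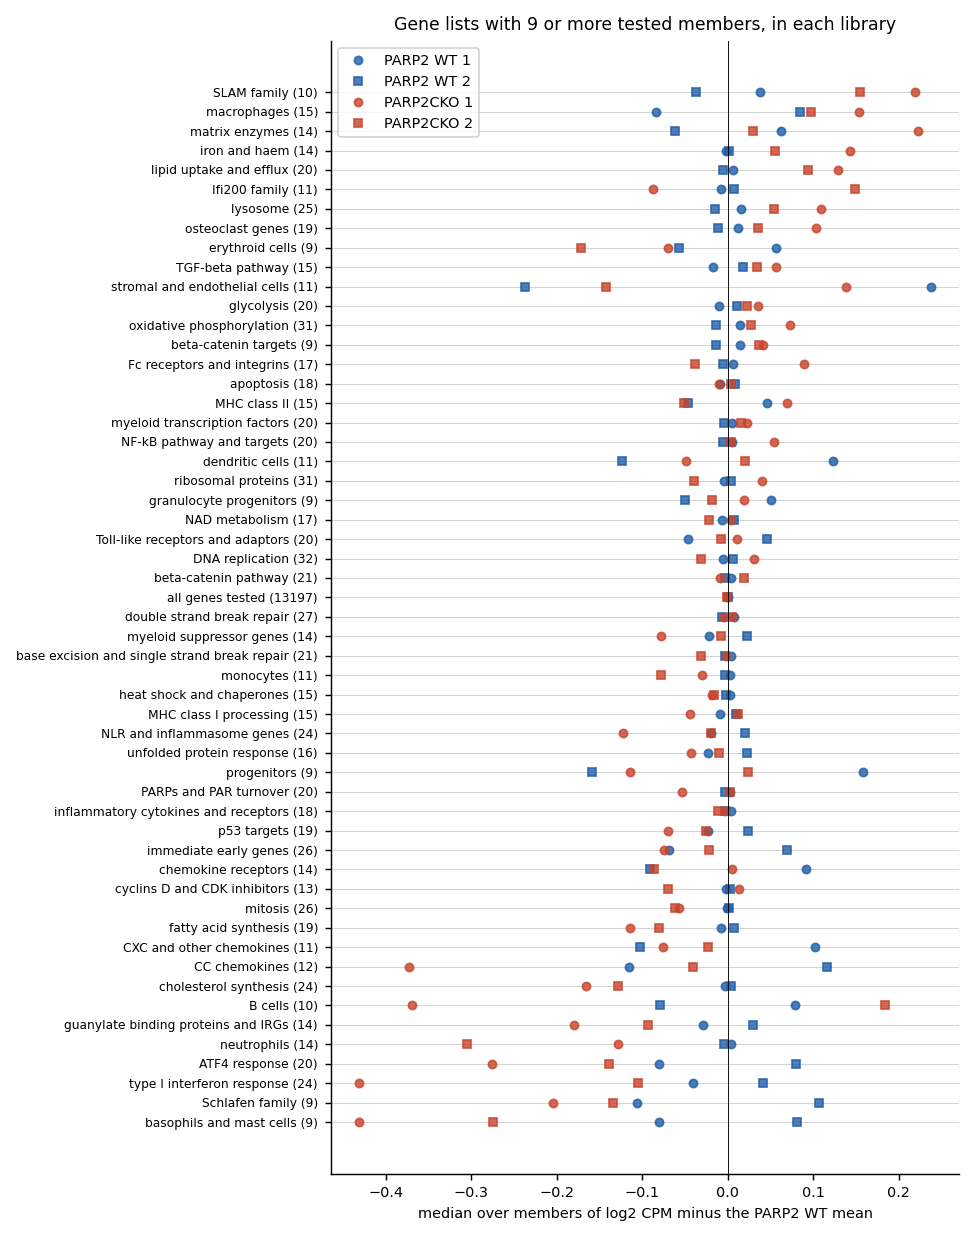
Median over the members of each of 53 gene lists with at least 9 tested members, and over all genes tested, of log2 CPM minus the PARP2 WT mean, with 1 symbol for each library and the number of tested members in brackets. Both PARP2CKO libraries lie to the left of both PARP2 WT libraries for cholesterol and fatty acid synthesis, ATF4 response, type I interferon response and neutrophils, and to the right for SLAM family, lipid uptake and lysosome genes.

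Genes of osteoclast formation and of beta-catenin signalling were examined because the study follows osteoclasts and this pathway. Of 19 tested osteoclast genes 14 were higher, against 49.3% of all genes, and 2 had an unadjusted p under 0.05, in opposite directions, against 4.83%. The proton pump subunit Atp6v0d2 had 106 and 127 CPM against 146 and 142 CPM (log2 fold change 0.31, adjusted p = 0.585, quasi-likelihood test), and Mmp9 was the other, lower one. The log2 fold change of Atp6v0d2 was 0.18 without PARP2 WT replicate 1 and 0.44 without PARP2 WT replicate 2, where it was called (adjusted p = 0.0326, quasi-likelihood test), and DESeq2 also called it (0.0390). Tnfrsf11a, the receptor RANK, had 66.6 and 64.8 CPM against 70.6 and 70.4 CPM, and the factor Nfatc1 overlapped at 68.1 and 68.3 CPM against 69.0 and 66.4 CPM. The cells had not yet received RANKL. Of 9 tested beta-catenin target genes none had an unadjusted p under 0.05, and 6 of the 17 in the list were at or under 3 counts in each of the 4 libraries. Ccnd1 had 643 and 661 CPM against 658 and 724 CPM, Myc had 94.5 and 92.7 CPM against 101 and 95.9 CPM, and Axin2 was near the floor, between 0.0838 and 0.156 CPM. Of 21 pathway genes 1 had an unadjusted p under 0.05, the adaptor Dvl2, with 41.8 and 40.9 CPM against 36.8 and 36.0 CPM, a gene in the window around Nlrp1a. Ctnnb1, beta-catenin itself, had 461 and 422 CPM against 532 and 459 CPM.

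Genes with the largest differences and a mean of at least 5 CPM were in several cases carried by 1 PARP2CKO library. Fabp7, a fatty acid binding protein, had 8.44 and 7.54 CPM against 12.3 and 14.9 CPM (log2 fold change 0.77, adjusted p = 0.954, quasi-likelihood test). Hal, histidine ammonia-lyase, had 9.32 and 7.17 CPM against 16.6 and 10.7 CPM, Sel1l3 had 5.26 and 4.94 CPM against 9.76 and 6.73 CPM, and the complement inhibitor Cd59a had 10.3 and 12 CPM against 18.8 and 13.8 CPM. For these 3 genes replicate 1 was the higher library. Without it the log2 fold changes were 0.37 for Hal, 0.40 for Sel1l3 and 0.31 for Cd59a. Smpdl3a, a phosphodiesterase of lipid metabolism, was even, with 265 and 271 CPM against 321 and 316 CPM (adjusted p = 0.371, quasi-likelihood test).

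Some of the genes in which replicates of a group were farthest apart did not separate the groups, and others, Ccl6, Nlrp1a and Egr1 in PARP2 WT, did. Among 9769 genes with a mean of at least 5 CPM, 3 were apart by at least 1 on the log2 scale between the PARP2 WT libraries, and 6 between the PARP2CKO libraries. Of the 15 genes farthest apart in PARP2CKO, 5 lay on chromosome 13. Naip7, the farthest apart of the 15, had no position and is not in that count. The genes named here were chosen after their values were seen. Arsb, a lysosomal sulfatase, had 333 CPM in PARP2CKO replicate 1 and 86.2 CPM in replicate 2, against 211 and 223 CPM in PARP2 WT. Naip6, a sensor of bacterial flagellin, had 11.2 and 44.3 CPM in PARP2CKO replicates 1 and 2 and 28.7 and 29.6 CPM in PARP2 WT, and Iqgap2 had 60.4 and 130 CPM and 91.7 and 98.5 CPM in the same order. For these 3 genes the PARP2 WT libraries lay between the 2 PARP2CKO libraries, and none of the 3 had groups that did not overlap. Naip6 has close copies, with which it may share reads. Of the 15 genes farthest apart in PARP2 WT, 7 lay on chromosome 2 and 4 on chromosome 11. The splicing factor Cwc22 had 504 CPM in PARP2 WT replicate 1 and 967 CPM in replicate 2, against 900 and 1007 CPM in PARP2CKO, and Hebp1 had 36.2 and 17.2 CPM against 18.4 and 17.0 CPM.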

How the data were processed

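Total RNA (4 µg per sample) was made into TruSeq Stranded Total RNA libraries and sequenced single-end on an Illumina HiSeq. Per the submitters' processing notes and the paper's methods, read quality was checked with FastQC 0.11.2 and FastQ Screen, adapters were trimmed with fastq-mcf, and reads were aligned to mm10 with TopHat2 2.0.12, marked for duplicates with Picard 1.127 and counted per gene with featureCounts of Subread, and the authors deposited these raw counts, 1 column per library. The strand setting of the counting is not given in the sources used here, so genes that overlap on opposite strands may share reads.

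The 8 libraries, in 4 groups of 2, were fitted together with edgeR 4.0.16 (R 4.3.3, limma 3.58.1) after filterByExpr and TMM scaling, with 1 mean per group and no covariate. PARP2CKO was compared with PARP2 WT by the quasi-likelihood test, and a gene was called at a Benjamini-Hochberg adjusted p of 0.05. CPM were computed from the deposited counts and the TMM-scaled library sizes, and floors of 3 counts per library cover counting error only. DESeq2 1.42.0, the likelihood-ratio test, other filters and scalings, the PARP2 line alone, a replicate block and each library left out were alternatives.

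Genes named were Parp2, Parp1 and Lyz2, all called genes, the 20 next by p-value without overlap, the 6 largest rises and 6 largest falls at 5 CPM or more, and within lists the members at an unadjusted p under 0.05 without overlap and defining members. Others are said to be chosen after their values were seen or are given as values for comparison. The members and the 60 gene lists were chosen with earlier results of these data known. Positions are GENCODE for GRCm38, for Hmga2-ps1 RefSeq for GRCm38.p6, and promoter windows RefSeq for GRCm38.p6. Gene names follow the counted table, where Emr1 stands for Adgre1 and AI607873 for Ifi207. Some members of the lists are counted but not reported here by name.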

Additional observations from a re-analysis of the deposited data

Results flagged for a closer look

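The effect of PARP2CKO differed from that of PARP1CKO by a test of the difference itself in 2 genes of 13197 (0.0152%). For Parp2 the PARP2CKO log2 fold change was 0.82 lower, a difference of -0.82 (adjusted p = 0.00634, edgeR's quasi-likelihood test), with Parp2 at 39.1 and 40.8 CPM in PARP1 WT and 38.3 and 37.0 CPM in PARP1CKO. For Nlrp1c-ps the fitted difference was -11.08 (adjusted p = 0.0107, same test), a value that depends on the prior count because both PARP2CKO libraries were at 0, and the gene had 8.17 and 8.53 CPM in PARP1 WT and 9.99 and 8.72 CPM in PARP1CKO. For the other called genes the difference between the effects did not pass the adjusted threshold, which does not show that the effects were alike. With 2 libraries per group, single libraries were not tested for standing apart.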

How the results depend on the processing

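The 7 calls (1 higher, 6 lower) became 26 (5 and 21) when low counts were not filtered, 39 (12 and 27) by the likelihood-ratio test and 27 (8 and 19) by DESeq2, which shared 6 of the 7 and did not call Ifi202b. The cause was not tested. Leaving out 1 library gave 6 to 19 calls, 0 to 5 higher and 6 to 14 lower, with 19 without PARP2 WT replicate 1, 14 without PARP2 WT replicate 2, 6 without PARP2CKO replicate 1 (3 shared) and 11 without PARP2CKO replicate 2 (4 shared). Calls numbered 5 with 1 CPM in 2 libraries (5 shared), 5 with the PARP2 line alone (4 shared), 7 with DESeq2 size factors and 8 without a composition factor. The 637 genes at unadjusted p under 0.05 were 379 by DESeq2 and 381 to 828 with 1 library left out. The test of PARP2CKO against PARP1CKO effects, called in 2 genes, was called in 72 by the likelihood-ratio test and 46 by DESeq2. All 138 log2 fold changes of named and list genes kept their sign under every alternative in which they were fitted (6 of them could not be fitted under 1 or 2 of the 12), as did 28 of 61 medians of lists and of all genes.

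The replicate numbers were not shown to pair the samples, since same-numbered libraries had deviations with a correlation of 0.147 over 2 pairs. With the replicate block there were 11 calls, 10 of them lower, including the 7 and the log2 fold change of Egr1 (adjusted p = 0.0405, edgeR's quasi-likelihood test), and 1 gene for the difference between effects.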
